A study of Mus musculus with 2 samples.

Results

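The mitochondria-rich barcodes of 2 post-ischemic mouse kidney libraries were described. They were chosen by measured values, as the barcodes with at least 1000 unique molecular identifiers (UMIs, each standing for a captured RNA molecule) of which over 50% came from the 13 protein-coding genes of the mitochondrial genome. There were 1278 of them among 8355 barcodes of that depth, namely 756 of 3849 in the control library and 522 of 4506 in the JPI-289 library. Both libraries came from 9-week-old male C57BL/6 mice whose kidneys had undergone bilateral ischemia and reperfusion, and kidney tissue was taken 24 h after surgery. JPI-289, an inhibitor of poly(ADP-ribose) polymerase, was injected into the peritoneal cavity just before reperfusion at 100 mg/kg in 1 mouse, and the control mouse received saline at the same moment. Each condition therefore had 1 animal and 1 library, no uninjured kidney was among the libraries used here, and no test between or within the conditions was made. The control library held 38328760 UMIs and the JPI-289 library 35548396, and the share of mitochondrial UMIs in the whole library was 16.6% and 15.2%.

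Mitochondrial transcripts are made inside the organelle from its own circular genome and encode core subunits of the respiratory chain and of ATP synthase. Proximal tubule and thick ascending limb cells pump sodium at high cost and are packed with mitochondria, so their RNA is rich in these transcripts even in a healthy kidney. When the plasma membrane of a cell breaks, cytoplasmic RNA can leak out while mitochondria stay behind, which is why a high mitochondrial share is commonly used as a filter in single-cell data. In a droplet assay, RNA released by broken cells is also captured in every droplet. For this reason 2 sets of barcodes from the same library are given beside the mitochondria-rich ones, the other barcodes with at least 1000 UMIs and at most 50% mitochondrial UMIs, and the droplets with 100 to 300 UMIs, whose RNA is mostly free RNA. Levels of nuclear genes are UMIs per 1000000 non-mitochondrial UMIs (CPM) summed over the barcodes of a set, so that the mitochondrial share that chose the barcodes does not enter them. Intervals are exact 95% intervals and cover counting error only, not differences between animals.

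The mitochondria-rich barcodes made up 19.6% of the control barcodes of at least 1000 UMIs (18.4 to 20.9) and 11.6% of the JPI-289 barcodes (10.7 to 12.6). They held 4.68% of all UMIs and 21.1% of the mitochondrial UMIs of the control library, against 3.40% and 16.9% of the JPI-289 library. Their share was lower in deeper barcodes in both libraries. Among barcodes of 1000 to 2000 UMIs it was 28.4% for the control and 15.4% for JPI-289, and among those of 5000 UMIs or more it was 5.72% and 2.63%. At each of the 3 depths the control share was the higher one.

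The mitochondrial share, which chose the barcodes, had 2 separate modes in both libraries. Most of the other barcodes had under 10%, and within the mitochondria-rich barcodes the median was 75.8% for the control and 78.7% for JPI-289, with maxima of 96.5% and 97.0%. The threshold lay in the sparse range between these modes. Just outside it, at 45 to 50%, there were 46 control and 48 JPI-289 barcodes, with a median of 1015 and 1092.5 non-mitochondrial UMIs. Just inside, at 50 to 55%, there were 52 and 40, with medians of 786 and 812.5. The proximal tubule (PT) list described below stood at 23394 CPM just outside and 21684 just inside in the control library, and at 4077 and 5333 in the JPI-289 library.

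**Figure D1:**
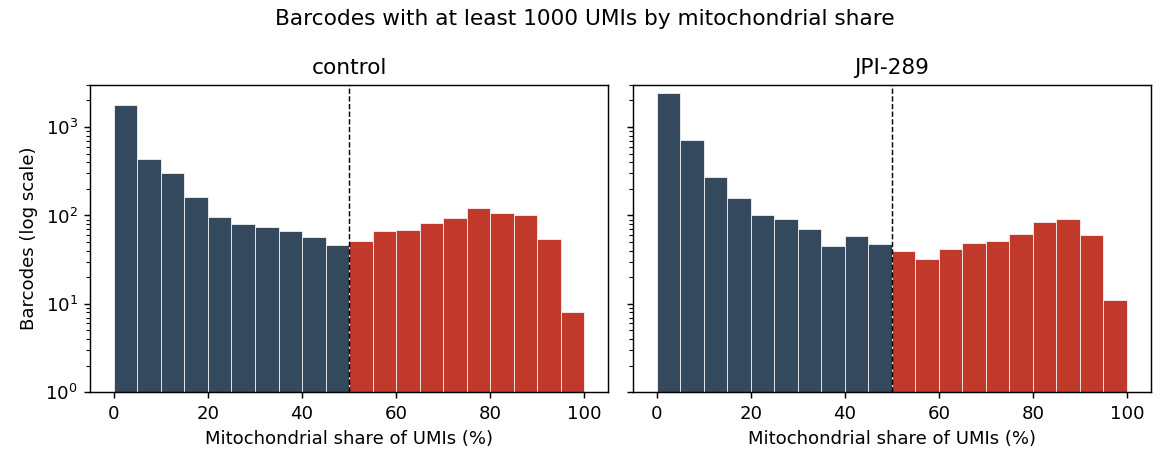
Number of barcodes (log scale) with at least 1000 UMIs against their mitochondrial share in bins of 5 percentage points, for the control (left) and JPI-289 (right) library. The dashed line marks 50%, and the red bars to its right are the 756 control and 522 JPI-289 mitochondria-rich barcodes, which form a mode of their own above 70%.

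The mitochondria-rich barcodes had many mitochondrial and few nuclear molecules. Their median was 1295 mitochondrial UMIs in the control and 1436.5 for JPI-289, against 114 and 81 in the other barcodes and 24 and 26 in the droplets of 100 to 300 UMIs. Their median of non-mitochondrial UMIs was 437 and 358, against 2614 and 2336 in the other barcodes and 178 and 160 in the droplets. The choice of barcodes sets a minimum of mitochondrial UMIs that the droplets cannot reach, so the mitochondrial excess over the droplets follows from it. The median number of nuclear genes detected was 285 and 217.5, against 1233 and 1072.5 in the other barcodes. Nuclear UMIs were fewest, near the droplet level, at the highest mitochondrial shares, with a median of 241.5 for the control and 190 for JPI-289 among barcodes with over 90% mitochondrial UMIs. The mean droplet of 100 to 300 UMIs held 29.95% of the nuclear UMIs of the mean mitochondria-rich barcode for the control and 28.5% for JPI-289. Whether a low count of nuclear UMIs stood for lost cytoplasm, a small cell or a droplet with free mitochondria was not tested.

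**Figure D2:**
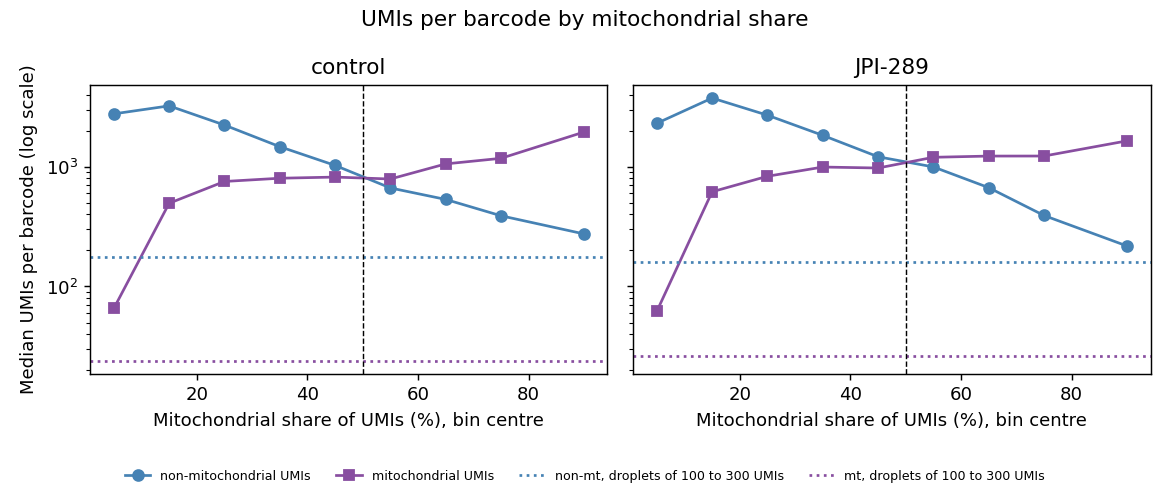
Median UMIs per barcode (log scale) from nuclear (circles) and mitochondrial (squares) genes against the mitochondrial share in bins of 10 percentage points, with 80 to 100% as 1 bin, for the control (left) and JPI-289 (right) library. Dotted lines give the medians in droplets of 100 to 300 UMIs (178 and 160 nuclear, 24 and 26 mitochondrial), which the nuclear line approaches at the right while the mitochondrial line does not.

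The 2 libraries shared 22 cell barcodes of at least 1000 UMIs, and 1 of these was mitochondria-rich in both. A doublet caller was not run. In barcodes thinned to 200 nuclear UMIs, as described below, 1 mitochondria-rich barcode for the control and 2 for JPI-289 carried more than 1 tubule segment's markers.

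The mitochondrial genes that chose the barcodes are given as a description. All but 2 of them, mt-Nd3 and mt-Nd6, had at least 1 UMI in every mitochondria-rich barcode of both libraries. mt-Co1, the catalytic subunit of cytochrome c oxidase, at M:5328-6872 of GRCm38, ranged from 25 to 1288 UMIs per barcode with a median of 141 in the control, and from 41 to 784 with a median of 202 in the JPI-289 library. mt-Cytb, the cytochrome b of complex III, at M:14145-15288, ranged from 57 to 985 UMIs with a median of 196 in the control, and from 27 to 1371 with a median of 206 in the JPI-289 library. Their presence in every barcode follows from the choice of barcodes, and the highest count was many times the lowest in each library.

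The makeup of the mitochondrial RNA, which the choice of barcodes did not use, differed by a few percentage points at most between the mitochondria-rich and the other barcodes. mt-Co1 made up 12.7% of the mitochondrial UMIs of control mitochondria-rich barcodes against 17.4% in the other barcodes and 13.7% in droplets. Under JPI-289 it was 14.2% against 16.8% and 13.2%. mt-Co1 was the gene whose share differed most from the other barcodes in both libraries. mt-Cytb made up 13.8% against 13.6% in the control and 14.5% against 15.2% in the JPI-289 library. mt-Co3, another subunit of cytochrome c oxidase, made up 13.7% and 13.4%, close to the 13.5% and 13.1% of the other barcodes and below the 18.2% and 16.9% of droplets. mt-Nd2, of complex I, was higher in both libraries, at 5.85% against 4.39% in the control and 6.50% against 5.39% in the JPI-289 library.

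Over the nuclear genes, the mitochondria-rich barcodes resembled the free RNA of their own library more than the other barcodes. Across the 1377 control genes with at least 50 UMIs in mitochondria-rich barcodes, 97.0% lay within 2-fold of the droplets and 86.9% within 2-fold of the other barcodes, with a Pearson r of log levels of 0.93 and 0.86. Across the 820 such genes of the JPI-289 library the shares were 97.3% and 90.5%, with r of 0.93 and 0.86. These are descriptions over genes, which share the library, its depth and its free RNA. Against the other barcodes, 897 of 13520 control genes were at least 2-fold higher (6.63% of the genes compared) and 2734 at least 2-fold lower (20.2%), with a median log2 ratio of -0.21 and 40.3% of the genes above 0. For JPI-289 1468 of 12782 genes were at least 2-fold higher (11.5%) and 1954 lower (15.3%), with a median of -0.03 and 48.7% above 0. Against the droplets, 8.73% of 11941 control genes were at least 2-fold higher and 8.21% lower, and in the JPI-289 library 14.4% of 11015 were higher and 7.53% lower, with medians of 0.02 and 0.10. Over only the other barcodes of 20 to 50% mitochondrial UMIs, chosen after seeing the data, the medians were -0.01 and 0.00. There 232 control and 297 JPI-289 genes were at least 2-fold higher and 292 and 357 lower, with fewer genes compared. The correlation and the share within 2-fold were not computed for that set, so which set was closest was not tested. Most genes in these counts had few UMIs in the mitochondria-rich barcodes, so the shares also hold counting error.

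The nuclear genes with most UMIs were Gm42418, Gpx3, Fth1, Malat1 and Spp1 in the control, and Gm42418, Fth1, Malat1, Spp1 and AY036118 in the JPI-289 library. Gm42418, at chr17:39846958-39848788 of GRCm38, and AY036118, at chr17:39847113-39848035 on the opposite strand, are non-coding loci annotated over a ribosomal RNA repeat, and their counts are usually read as ribosomal RNA that was captured by chance. Gm42418 stood at 124378 CPM in the control mitochondria-rich barcodes, 24590 in the other barcodes and 98030 in droplets. In the JPI-289 library it stood at 146222, 27178 and 124194 CPM. It was thus far above the other barcodes in each library, by a log2 ratio of 2.34 (2.33 to 2.35) and 2.43 (2.41 to 2.44), and only 0.34 and 0.24 above the droplets. Over the other barcodes of over 20% and at most 50% mitochondrial UMIs, a comparison chosen after seeing the data, its log2 ratio was 1.05 and 1.29. The 2 loci overlap each other, so reads may be split between them. Together with AY036118 and Lars2, a gene grouped with them here, Gm42418 was higher in control bins of higher mitochondrial share, from 22634 CPM under 10% to 159156 at 80 to 100%. In the JPI-289 library it was 28488 CPM under 10%, was highest at 204212 in the bin of 60 to 70%, and was 197594 and 179602 in the last 2 bins. All 3 genes were at least 2-fold higher than in the other barcodes in both libraries, beside 6.63% and 11.5% of all genes.

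Messenger RNAs of the cytosolic ribosome went the other way. The summed level of the 82 genes was 70280 CPM in control mitochondria-rich barcodes against 114364 in the other barcodes and 84519 in droplets, a log2 ratio of -0.70 (-0.72 to -0.69) over the other barcodes. With JPI-289 it was 70920 against 106706 and 82524 CPM, a log2 ratio of -0.59 (-0.61 to -0.57). Of the 80 genes with enough UMIs to be compared, 78 were lower for the control and 79 for JPI-289, although only 1 in each was lower by 2-fold or more. Of all genes 40.3% and 48.7% were above 0. The median of the list was -0.66 and -0.58 beside -0.21 and -0.03 over all genes. Rps2, a small subunit protein, stood at 2226 against 3731 CPM for the control and 2089 against 3394 for JPI-289. The nuclear-encoded subunits of the respiratory chain, by contrast, were near their level in the other barcodes, with a summed log2 ratio of 0.02 (-0.00445 to 0.04) for the control and -0.10 (-0.13 to -0.07) for JPI-289, and none of 77 genes was past 2-fold. They were at -0.42 and -0.46 over the other barcodes of 20 to 50% mitochondrial UMIs.

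The 10 immediate early genes, such as the transcription factors Fos and Jun, which are switched on within minutes of stress, were all lower than in the other barcodes in both libraries, 7 of 10 at least 2-fold in each, beside 20.2% and 15.3% of all genes. Their summed level was 2148 against 5659 CPM in the control, a log2 ratio of -1.40 (-1.49 to -1.31), and 2096 against 5107 for JPI-289, a log2 ratio of -1.28 (-1.40 to -1.17). Droplets held 2062 and 2148 CPM, so the mitochondria-rich barcodes were at the level of the droplets. They were below the barcodes of 1 to 99 UMIs, which held 3347 and 3194 CPM. The mitochondria-rich barcodes were also near the other barcodes of over 20% mitochondrial UMIs, with log2 ratios of 0.26 and 0.07 over these. Fos stood at 377 against 1030 CPM for the control and 305 against 801 for JPI-289. Fatty acid oxidation enzymes, the main fuel pathway of PT, were higher in 14 of 15 genes in each library, beside 40.3% and 48.7% of all genes, with a summed log2 ratio of 0.55 (0.49 to 0.61) and 0.64 (0.55 to 0.72), and again near the droplets at -0.07 and 0.06. Over the other barcodes of 20 to 50% mitochondrial UMIs they were at -0.02 and 0.17. Genes of apoptosis summed to a log2 ratio of -0.39 (-0.55 to -0.24) for the control and -0.38 (-0.54 to -0.22) for JPI-289, but the genes did not move together, since 5 and 8 of 12 were higher, beside the same shares of all genes, and the median gene was at -0.22 and 0.20. The survival gene Mcl1, abundant in this list, stood at 205 against 395 CPM for the control and 288 against 648 for JPI-289. Heat shock proteins summed to -0.07 (-0.16 to 0.02) and -0.29 (-0.42 to -0.16), with 5 and 3 of 8 genes higher and medians of 0.27 and -0.24.

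Smaller sets were measured for completeness. The 13 tricarboxylic acid cycle enzymes had a summed log2 ratio of 0.24 and 0.03, the 8 chaperones of the endoplasmic reticulum 0.18 and 0.24, and the 14 genes of mitochondrial dynamics and mitophagy 0.15 and 0.02. The mitochondrial ribosome, which translates the mitochondrial messages but is encoded in the nucleus, had -0.25 and -0.21, with 22 and 23 of its 78 genes higher, beside 40.3% and 48.7% of all genes, and its median gene stood at -0.19 and -0.16. In the control this was near the median of -0.21 over all genes, and in the JPI-289 library below their median of -0.03. Parp1, the target of JPI-289, had 12 UMIs in control and 8 in JPI-289 mitochondria-rich barcodes, 26.8 CPM in each.

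Malat1 and Neat1, long non-coding RNAs that stay in the nucleus, were spread very unevenly. Summed over all mitochondria-rich barcodes, Malat1 stood at 19206 CPM for the control and 32493 for JPI-289, near the 17815 and 23655 of the other barcodes and well above the 4970 and 12816 of droplets. The typical barcode, however, was not above free RNA. The median Malat1 share of nuclear UMIs was 0.37% for the control and 0.94% for JPI-289, against 0.49% and 1.18% in droplets, and 194 control and 35 JPI-289 mitochondria-rich barcodes had no Malat1 UMI at all. The summed level came from a small group, since 23 control barcodes (3.04%, 1.94 to 4.53) and 38 JPI-289 barcodes (7.28%, 5.20 to 9.86) had at least 5% Malat1 and together held 67.6% and 70.5% of all Malat1 UMIs. The same barcodes held 84.7% and 91.4% of the Neat1 UMIs. They had a median of 1484 and 1001 nuclear UMIs, against 431 and 344.5 in the rest of the mitochondria-rich barcodes. Of the droplets of 100 to 300 UMIs, 0.0111% for the control and 0.28% for JPI-289 had at least 5% Malat1, and of the other barcodes 11.4% and 10.6%. Without the barcodes of at least 5% Malat1, its level was 6879 and 11798 CPM, beside 4958 and 12692 in the droplets below the same share.

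**Figure D3:**
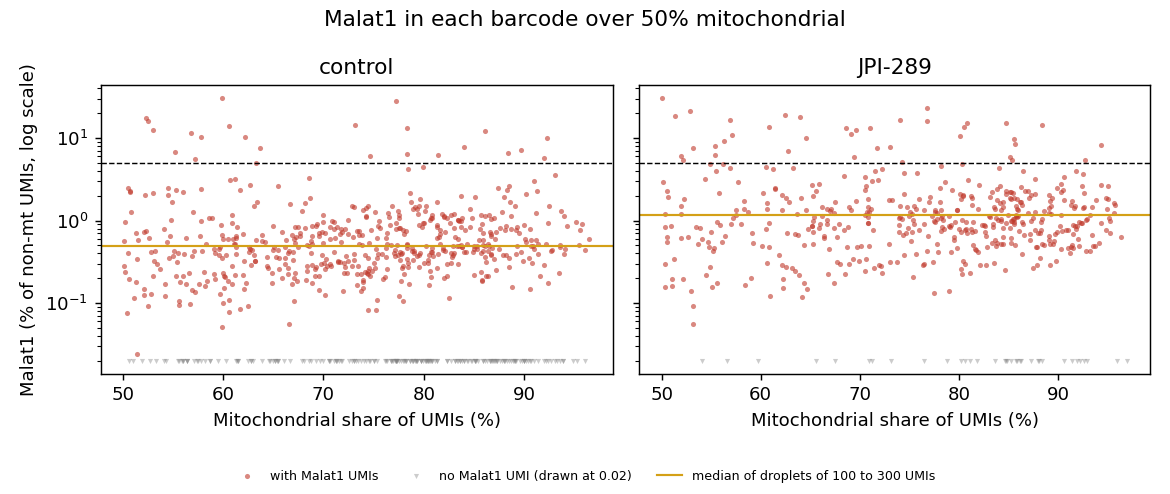
Share of Malat1 in the nuclear UMIs of each mitochondria-rich barcode (log scale) against its mitochondrial share, for the control (left) and JPI-289 (right) library, with barcodes lacking a Malat1 UMI drawn as triangles at 0.02. Most barcodes scatter around the median of the droplets of 100 to 300 UMIs (yellow line, 0.49% and 1.18%), and 23 and 38 lie at or above 5% (dashed line).

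PT markers were above the other barcodes in both libraries and near the level of the droplets. The list holds 26 genes, of which 21 mark PT segments, most of them by transport or metabolism, and 5 mark injured PT (Havcr1, Krt20, Vcam1, Sox9 and Cdh6). They summed to 18006 CPM (17615 to 18403) in control mitochondria-rich barcodes, 10433 in the other barcodes and 17284 in droplets. After JPI-289 treatment they summed to 5230 CPM (4974 to 5497), 3599 and 5526. The log2 ratio over the other barcodes was 0.79 (0.75 to 0.82) and 0.54 (0.47 to 0.61), with 20 of 24 compared genes higher in each library, beside 40.3% and 48.7% of all genes, and medians over the genes of 0.88 and 0.49, and over the droplets it was only 0.06 and -0.08. Without the 5 injury genes, left out after seeing the data, the log2 ratio over the other barcodes was 0.80 (0.76 to 0.83) and 0.64 (0.56 to 0.71), and over the droplets 0.06 and 0.01. When the comparison of the whole list was limited to the other barcodes of 20 to 50% mitochondrial UMIs, the log2 ratio over them was -0.12 and 0.14. The PT level of the mitochondria-rich barcodes was therefore near that of the droplets, and of the barcodes of intermediate mitochondrial share. It was above that of the barcodes of 1 to 99 UMIs, which held 14454 CPM for the control and 4516 for JPI-289. In bulk sums of this kind, fewer PT cells and less PT RNA per cell cannot be told apart.

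The PT genes did not behave alike. Pck1, the rate-limiting enzyme of gluconeogenesis, stood near its droplet level, at 6425 CPM in control mitochondria-rich barcodes, 4019 in the other barcodes and 7082 in droplets, and at 1174 (1054 to 1303), 513 and 989 CPM in the JPI-289 library. Slc5a2, the glucose transporter SGLT2 of the first PT segment, was above both sets in each library, at 361 CPM against 140 and 141 for the control and 315 against 105 and 192 for JPI-289. Lrp2, the endocytic receptor megalin, stood at 915 CPM against 265 and 579 in the control and at 248 against 38.9 and 134 in the JPI-289 library. Slc34a1, the sodium-phosphate cotransporter, was at 1546 CPM against 804 and 734 in the control, with 88 of its 693 UMIs in a single barcode, and at 513 against 383 and 621 in the JPI-289 library. Over the other barcodes of 20 to 50% mitochondrial UMIs, Lrp2 was at 0.34 and 1.36 and Slc34a1 at -0.19 and -0.31 on the log2 scale. Markers of injured PT had a summed log2 ratio over the other barcodes of 0.23 (-0.08 to 0.52) and 0.06 (-0.14 to 0.25), with members that went both ways. In the control 2 of 5 were higher, beside 40.3% of all genes, and the median gene was at -0.78. Krt20, a keratin of injured tubules, stood there at 91.5 against 34.1 CPM, a log2 ratio of 1.44 (0.93 to 1.88), and in the JPI-289 library at 399 against 364. Havcr1, which encodes the injury marker KIM-1, stood at 98.2 against 72.4 CPM for the control and 238 against 228 for JPI-289.

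**Figure D4:**
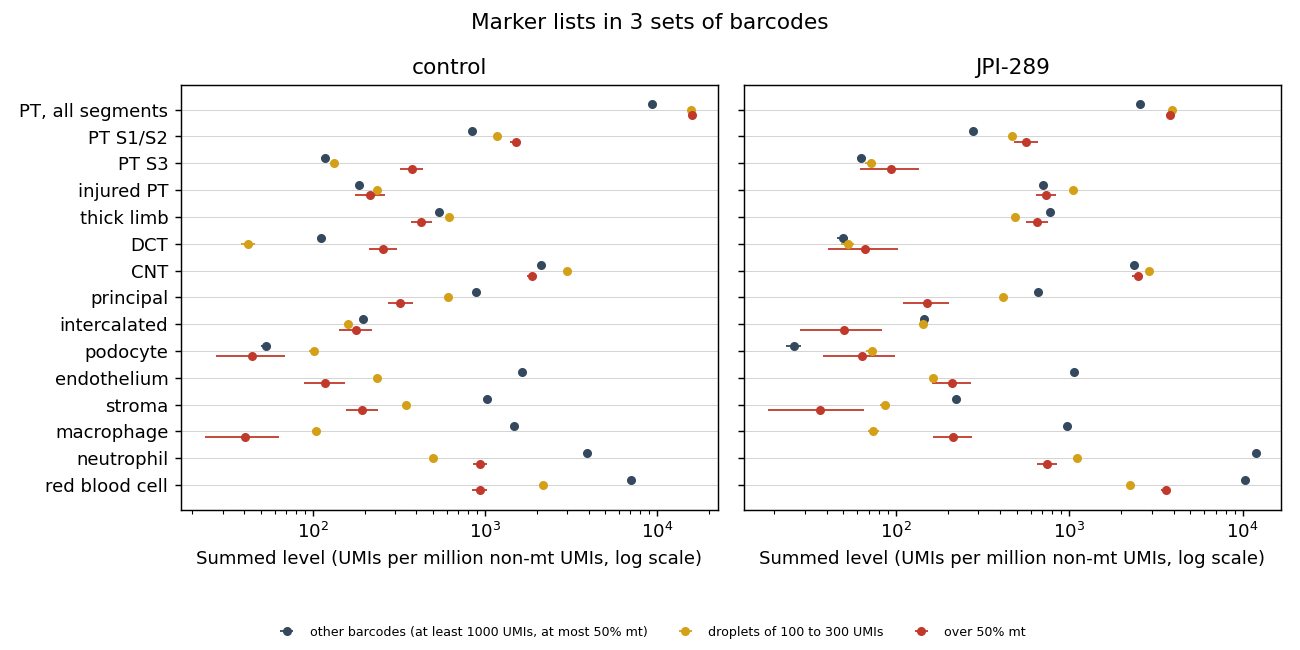
Summed level of marker lists in CPM (log scale) in mitochondria-rich barcodes (red), the other barcodes of at least 1000 UMIs (blue) and droplets of 100 to 300 UMIs (yellow), for the control (left) and JPI-289 (right) library, with exact Poisson intervals as bars. The lists of all PT segments, S1/S2 and S3 lie above the other barcodes and near or above the droplets, while the endothelium, stroma, macrophage, neutrophil and red blood cell lists lie below the other barcodes.

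In the control library markers of the PT segments S1, S2 and S3 exceeded the droplets. The 7 markers of S1 and S2, the first segments, summed to 1510 CPM in control mitochondria-rich barcodes, 840 in the other barcodes and 1177 in droplets, a log2 ratio over the droplets of 0.36 (0.25 to 0.47), with 6 of 7 genes higher beside 51.0% of all genes. For JPI-289 they summed to 567 CPM, 280 and 468, a log2 ratio over the droplets of 0.28 (0.05 to 0.50), with 4 of 7 genes higher beside 55.3%. The 6 markers of S3, the last segment, summed to 377 CPM (322 to 438) in control mitochondria-rich barcodes, 117 in the other barcodes and 132 in droplets, a log2 ratio of 1.69 (1.45 to 1.91) over the first and 1.51 (1.27 to 1.74) over the second. Of the 4 genes with enough UMIs to be compared, 3 were higher than in the other barcodes, beside 40.3% of all genes, and the exception, Slc5a8, had 4 UMIs. Over the other barcodes of 20 to 50% mitochondrial UMIs the control log2 ratio of the S3 list was 0.90 and that of S1 and S2 -0.35, and for JPI-289 they were 0.58 and -0.24. In the JPI-289 library the 6 markers summed to 93.9 CPM (62.4 to 136), 63.6 and 71.9, with a log2 ratio of 0.59 (-0.04 to 1.10) over the other barcodes and 0.41 (-0.22 to 0.93) over the droplets, intervals that include 0. Slc7a13, an amino acid transporter of the S3 brush border at chr4:19818725-19842218, had 50 UMIs in 40 control mitochondria-rich barcodes, with no more than 4 in any of them. Its level was 112 CPM (82.8 to 147) there, against 3.63 in the other barcodes and 4.93 in droplets, and this log2 ratio of 4.94 (4.36 to 5.52) over the other barcodes was the highest of all genes with at least 100 UMIs over both sets. Under JPI-289 Slc7a13 had 9 UMIs in 8 barcodes, 30.2 CPM (13.8 to 57.3) against 10.1 and 16.4.

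The 5 genes with the highest ratios in the control library were Slc7a13, Inmt, Cyp2a4, Acsm3 and Eci3. All of them also exceeded the droplets, and they exceeded the other barcodes of 20 to 50% mitochondrial UMIs by log2 ratios of 2.79, 1.84, 2.73, 2.29 and 2.11. The 5 genes were chosen for their ratio over all the other barcodes, which include those of 20 to 50%. Part of each excess therefore follows from the choice. Inmt, an N-methyltransferase, had 67 UMIs in 53 barcodes, 149 CPM against 11.6 in the other barcodes and 12.8 in droplets. Cyp2a4, a cytochrome P450 that hydroxylates steroids, had 39 UMIs in 31 barcodes, 87.0 CPM against 7.13 and 8.60, a count that is uncertain because a near-identical paralog, Cyp2a5, can take or remove its reads. Acsm3, a medium-chain acyl-CoA synthetase, had 85 UMIs in 62 barcodes, 190 CPM against 21.2 and 30.6. Eci3, an enoyl-CoA isomerase of fatty acid breakdown, had 72 UMIs in 59 barcodes, 161 CPM against 19.7 and 35.0. For JPI-289 the same 4 genes stood at 67.1, 13.4, 46.9 and 33.5 CPM in mitochondria-rich barcodes and at 38.3, 18.4, 49.6 and 37.3 CPM in droplets, and only the interval of Inmt over the droplets, 0.08 to 1.46 on the log2 scale, left out 0.

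The control barcodes were then sorted by how many of these 5 genes they held, a description made after their values were seen. The sets differed in depth, and whether the genes shared barcodes beyond what depth gives was not tested. Of the 756 control mitochondria-rich barcodes, 589 had no UMI of the 5 genes, 109 had UMIs of 1 gene, and 58 (7.67%) had UMIs of 2 or more. Kap, an androgen-dependent PT gene that was not used to sort them, stood at 6555 CPM in the first set, close to the 6404 of droplets, at 22141 in the second and at 38605 in the third. The third set had a median of 708 nuclear UMIs and a mitochondrial share of 66.6%, against 399 and 77.6% in the first. In the JPI-289 library 479 of 522 barcodes had none of the 5 genes and 6 (1.15%) had 2 or more, while of the other barcodes, which were deeper, 3.78% for the control and 4.57% for JPI-289 had 2 or more. Over all mitochondria-rich barcodes Kap stood at 11916 CPM in the control, against 2966 in the other barcodes, and at 4781 in the JPI-289 library, against 3856.

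**Figure D5:**
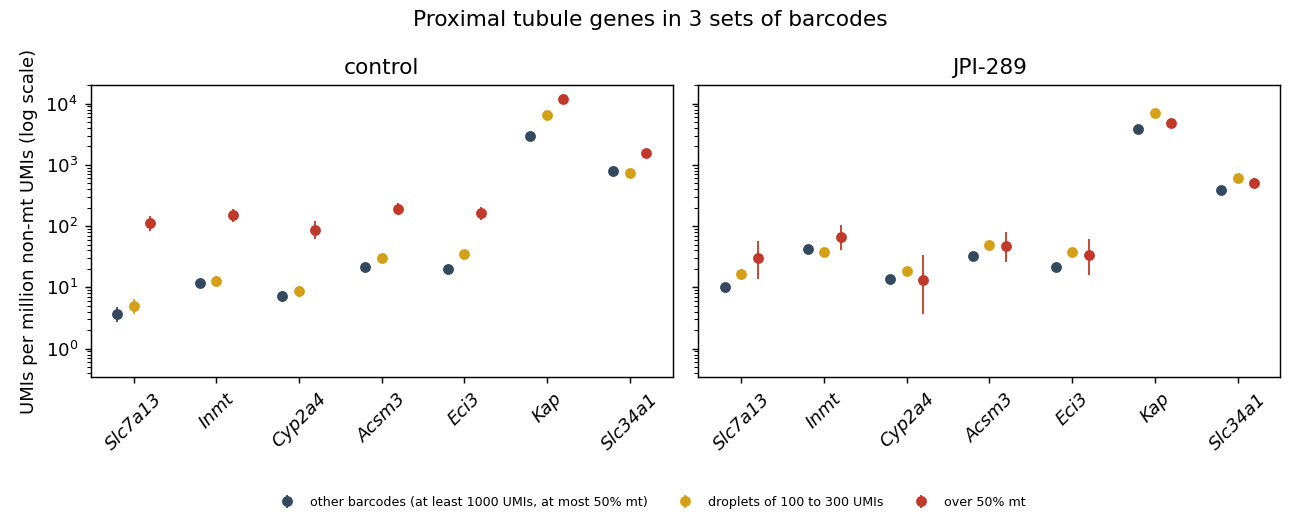
Level of 7 PT genes in CPM (log scale) in the other barcodes (blue), droplets of 100 to 300 UMIs (yellow) and mitochondria-rich barcodes (red), for the control (left) and JPI-289 (right) library, with exact Poisson intervals as bars. In the control, Slc7a13, Inmt, Cyp2a4, Acsm3 and Eci3 lie above both other sets, with log2 ratios over the droplets of 2.20 to 4.50, against -0.29 to 0.96 in the JPI-289 library.

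In the JPI-289 library the highest ratios over the other barcodes belonged to Ccdc85c, Tfpi2, Apob, Lrp2 and Tmem82. Apob, the structural protein of lipoproteins, had 122 UMIs in 73 barcodes, 409 CPM against 61.3 in the other barcodes and 304.5 in droplets, and in the control it stood at 614 against 105 and 435. Its log2 ratio was 2.74 (2.45 to 3.01) in the JPI-289 and 2.54 (2.35 to 2.73) in the control library. Tfpi2 rested on a single barcode, which held all 17 of its UMIs. Ccdc85c had 15 UMIs in 15 barcodes and Tmem82 had 12 in 11.

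Thick ascending limb (TAL) markers gave different pictures gene by gene. The 6 TAL genes summed to 428 CPM in control mitochondria-rich barcodes, against 545 in the other barcodes and 621 in droplets, and to 654 against 780 and 485 CPM in the JPI-289 library, log2 ratios over the other barcodes of -0.34 (-0.56 to -0.14) and -0.25 (-0.47 to -0.05). Over the other barcodes of 20 to 50% mitochondrial UMIs the ratios were -0.58 and -1.42. Umod, the urinary glycoprotein uromodulin, held most of these UMIs and was lower than in the other barcodes in each library, at 223 against 376 CPM and 412 against 714, and its log2 ratio over the barcodes of 20 to 50% was -0.92 and -1.91. With JPI-289 the other 5 genes were all at least 2-fold higher, each from 32 UMIs or fewer, beside 11.5% of all genes. Slc12a1, the sodium-potassium-chloride cotransporter that defines the segment, had 12 UMIs in 10 barcodes, 40.2 CPM against 12.9 and 8.53 in droplets, a log2 ratio of 1.70 (0.67 to 2.48), but -0.24 over the other barcodes of 20 to 50% mitochondrial UMIs. Wfdc15b had 32 UMIs in 12 barcodes, 107 CPM against 22.8. In the control library Slc12a1 stood at 42.4 CPM in mitochondria-rich and 42.2 in the other barcodes. Left without Umod, the JPI-289 log2 ratio of the list was 1.88 and the control value 0.29.

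The other tubule segments differed from one another. Connecting tubule genes, among them the calcium-handling S100g and the protease Klk1, had a log2 ratio of -0.17 (-0.27 to -0.07) for the control and 0.08 (-0.03 to 0.18) for JPI-289. A single JPI-289 barcode held 115 of the 744 UMIs, and the ratio without it was -0.15. The distal convoluted tubule list was at 1.21 in the control, but 97 of its 111 UMIs of Slc12a3, the thiazide-sensitive cotransporter, sat in 3 barcodes, and without the top barcode the ratio was 0.26. At a mitochondrial threshold of 60% the control ratio was -0.62, and with equal weight per barcode it was -0.29. In JPI-289 barcodes it was 0.47 (-0.29 to 1.07), from 20 UMIs in 14 barcodes. Principal cell genes of the collecting duct were lower, at -1.46 (-1.71 to -1.22) and -2.13 (-2.60 to -1.72), and their water channel Aqp2 stood at 147 against 449 CPM for the control and 104 against 420 for JPI-289, below the 285 and 257 of droplets as well. Intercalated cell genes were at -0.12 in the control, of which a single barcode held 42 of 80 UMIs and 23 of 24 UMIs of the bicarbonate exchanger Slc26a4, and at -1.18 without it. In the JPI-289 library they were at -1.48 (-2.37 to -0.81). Thin limb genes had 4 and 5 UMIs, log2 ratios of -4.14 and -2.85. These values changed over the other barcodes of 20 to 50% mitochondrial UMIs. There the connecting tubule list was at -0.97 for the control and -1.27 for JPI-289, the distal convoluted tubule list at 0.21 and -1.21, the principal cell list at -0.01 and -0.64, the intercalated cell list at 0.60 and -0.85, and the thin limb list at 1.92 and 1.25.

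Most single barcodes, mitochondria-rich or not, carried no segment clearly above free RNA. Each barcode was thinned to 200 nuclear UMIs, leaving aside the 42 and 89 mitochondria-rich barcodes of the control and the JPI-289 library that were shallower, and was said to carry a list with at least 3 UMIs of it and 3 times its share in free RNA (barcodes of 1 to 99 UMIs). By this rule 678 of 714 control barcodes (94.96%) and 360 of 433 JPI-289 barcodes (83.1%) carried no segment, against 89.8% and 86.3% of the other barcodes. PT was carried by 9 control barcodes (1.26%, 0.58 to 2.38) and 54 JPI-289 barcodes (12.5%, 9.51 to 16.0), against 4.27% and 7.03% of the other barcodes. These shares compare different demands, since the free RNA of the control library is so rich in PT genes that a share of 4.34% was needed there and 1.5% in the JPI-289 library. Without the injury genes PT was carried by 9 and 43 (9.93%, 7.28 to 13.1), against 4.14% and 4.97% of the other barcodes. Connecting tubule genes were carried by 21 (2.94%) and 16 (3.70%), TAL genes by 4 in each library, distal convoluted tubule genes by 2 and 0, and principal cell genes by 0 and 1. Taken as 3 counts of the total, a count of 0 allows a share of up to 0.42% for the control and 0.69% for JPI-289, and the exact interval reaches 0.52% and 0.85%. Without thinning, PT was carried by 6 and 36 barcodes and TAL by 12 and 19.

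Markers of cells outside the tubule were mostly below the other barcodes. Endothelial genes stood at 118 CPM in control mitochondria-rich barcodes against 1652 in the other barcodes and 237 in droplets, and at 211 against 1065 and 165 in the JPI-289 library, log2 ratios of -3.79 (-4.22 to -3.42) and -2.32 (-2.72 to -1.98), with all 8 genes at least 2-fold lower in each, beside 20.2% and 15.3% of all genes. Stromal genes were at -2.39 and -2.53. Macrophage genes were at -5.17 (-5.96 to -4.55) in the control, from 18 UMIs, and at -2.16 (-2.55 to -1.82) in the JPI-289 library, where 3 barcodes held 54 of 64 UMIs. Against the droplets, macrophage genes stood at 40.2 and 105 CPM in the control, but at 215 and 74.6 for JPI-289, higher by 1.53 (1.13 to 1.89) on the log2 scale with 6 of 6 compared genes higher beside 55.3% of all genes. Most of the UMIs behind this JPI-289 value sat in the 3 barcodes. Barcodes of 1 to 99 UMIs held 411 and 330 CPM of macrophage genes, more than the mitochondria-rich barcodes in each library. Most differences from the other barcodes were relative to barcodes of low mitochondrial share. Over the other barcodes of 20 to 50%, endothelial genes were at -0.90 and 1.12, stromal genes at 0.77 and 0.78, macrophage genes at 0.23 and 2.04, neutrophil genes at -0.13 and -0.64, and red blood cell genes at -1.03 and 0.51. Of the barcodes that carried endothelial genes after thinning, 0 of 172 in the control and 0 of 142 in the JPI-289 library were mitochondria-rich. Of the carriers of neutrophil genes, 3 of 181 and 2 of 576 were mitochondria-rich. These genes comprise the calprotectin subunits S100a8 and S100a9.

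The lowest ratios were mostly those of immune and endothelial genes. In the control the chemokine genes Ccl2 and Ccl9, H2-Aa, which presents antigen, Ptprb, an endothelial phosphatase, and Gimap6 had 0 UMIs in mitochondria-rich barcodes. Taking 3 counts over the set as the floor, Ccl2 was at least 19.4-fold lower than in the other barcodes and H2-Aa at least 13.6-fold lower. For JPI-289 Ngp, a neutrophil granule protein, Ccl3, Saa3 and Fn1 had 0 UMIs and Chil3 had 1, and Ngp was at least 43.8-fold lower. Neutrophil genes summed to 941 CPM against 3924 in the control, where 3 barcodes held 290 of 422 UMIs, and to 748 against 11900 in the JPI-289 library, log2 ratios of -2.06 and -3.99. A single JPI-289 barcode held 100 of 223 UMIs. Without the top barcode of each library the ratios were -2.55 and -4.84. Droplets held 500.5 and 1111 CPM of neutrophil genes. The control mitochondria-rich barcodes were above the droplets by 0.91 (0.77 to 1.05), with 6 of 6 genes higher beside 51.0% of all genes. Most of the UMIs behind this control value sat in the 3 barcodes. The barcodes of 1 to 99 UMIs held 1334 and 3699 CPM of neutrophil genes, above the mitochondria-rich barcodes in each library. Haemoglobin and other red blood cell genes were at -2.92 (-3.07 to -2.79) for the control and -1.52 (-1.61 to -1.43) for JPI-289, where a single barcode held 811 of 1076 UMIs and the ratio without it was -3.53. Over the droplets they were at -1.23 and, with that barcode, 0.69. Podocyte genes were at -0.23 (-0.99 to 0.37) and 1.34 (0.55 to 1.96), from 20 and 19 UMIs, and at 44.6 and 63.7 CPM they lay below the 101.4 and 72.6 of droplets. Lymphocyte genes had no UMI in either library. Platelet genes had 14 UMIs in each library, and urothelial genes 5 for the control and 0 for JPI-289. Lcn2, a secreted injury protein of the distal tubule and of neutrophils, stood at 906 CPM against 2600 for the control and 1730 against 3676 for JPI-289.

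Between the libraries, the genes that differed most in mitochondria-rich barcodes differed in the same direction in the other barcodes and in droplets. Of 5136 genes with at least 20 UMIs over both, 645 were at least 2-fold higher in the JPI-289 library (12.6%) and 768 at least 2-fold lower (15.0%), with a median log2 ratio of 0.01. The highest were Pdk4, Plin2, Fgb, Mt2 and Srxn1. Pdk4, a kinase that restrains the use of pyruvate in mitochondria, stood at 98.2 CPM in control and 1365 in JPI-289 mitochondria-rich barcodes, a log2 ratio of 3.78 (3.35 to 4.28), beside 2.72 in the other barcodes and 4.10 in droplets. Plin2, a coat protein of lipid droplets, stood at 440 and 4352 CPM, a log2 ratio of 3.30 (3.09 to 3.53), beside 2.93 and 3.38. Fgb, a fibrinogen chain, was at 3.26, the metallothionein Mt2 at 2.48 and Srxn1, an antioxidant enzyme, at 2.43, and each was higher in the other barcodes and in droplets as well.

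The PT list was lower in the JPI-289 mitochondria-rich barcodes, by a log2 ratio of -1.78 (-1.86 to -1.71), beside -1.54 in the other barcodes and -1.64 in droplets, with 16 of 21 compared genes at least 2-fold lower beside the 15.0% of all genes. This list includes the 5 injury genes, whose sum was higher in the JPI-289 library, and without them the ratio was -1.98 (-2.07 to -1.90), beside -1.83 in the other barcodes. Slc5a12, a lactate transporter, went from 127 UMIs to 1, G6pc, the last enzyme of gluconeogenesis, from 123 to 2, and Keg1 from 299 to 6, with log2 ratios of -5.82, -5.04 and -4.94, and Tmem174 and Fmo1 were at -4.97 and -4.95. All 5 were also lower in the other barcodes, with log2 ratios from -6.23 to -3.44. Injured PT genes were higher, by 1.76 (1.41 to 2.12), beside 1.93 in the other barcodes and 2.14 in droplets. Krt20 stood at 91.5 and 399 CPM. Slc5a2 differed less, at -0.19 (-0.58 to 0.18). TAL genes were at 0.61 (0.32 to 0.91), beside 0.52 in the other barcodes and -0.36 in droplets. Malat1 was at 0.76 (0.72 to 0.80), beside 0.41 and 1.37. Some lists of cells outside the tubule differed in opposite directions. Macrophage genes were at 2.39 (1.65 to 3.26), beside -0.62 and -0.49, and endothelial genes at 0.83 (0.29 to 1.39), beside -0.63 and -0.52. Neutrophil genes were at -0.33 (-0.57 to -0.09), beside 1.60 and 1.15. Few barcodes made up much of these sums. In JPI-289 mitochondria-rich barcodes, 3 barcodes held 54 of 64 macrophage UMIs, and 3 held 26 of 63 endothelial UMIs. In the control, 3 held 290 of 422 neutrophil UMIs. The intervals do not cover such unevenness between barcodes. Stromal genes, at -2.34 beside -2.20 and -2.00, differed in the same direction. Red blood cell genes were at 1.95 beside 0.54 and 0.03, a value that rested largely on a single barcode. That JPI-289 barcode held 811 of 1076 UMIs, beside 419 UMIs in all control mitochondria-rich barcodes. At a mitochondrial threshold of 40% the red blood cell ratio was -0.37.

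The 6 S3 markers were lower in JPI-289 mitochondria-rich barcodes by a log2 ratio of -1.98 (-2.64 to -1.42), beside -0.88 in the other barcodes and -0.88 in droplets. Kap and the 5 genes with the highest control ratios were lower in mitochondria-rich barcodes but not in the other barcodes, a difference that was not tested. The 5 genes were chosen for their control ratio over the other barcodes, which fixes part of this contrast. Slc7a13 was lower in JPI-289 mitochondria-rich barcodes by a log2 ratio of -1.82 (-3.10 to -0.85), and higher in JPI-289 other barcodes by 1.47 and in droplets by 1.72. Inmt was at -1.13 (-1.96 to -0.42), beside 1.86 and 1.58. Acsm3 was at -1.97 beside 0.60 and 0.70, Cyp2a4 at -2.55 beside 0.96 and 1.09, Eci3 at -2.20 beside 0.15 and 0.09, and Kap at -1.32 (-1.40 to -1.23) beside 0.38 and 0.13. With 1 library per condition, the drug, the animal and the dissociation of each kidney cannot be told apart as sources of these differences.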

How the data were processed

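Single-cell RNA sequencing with 10x Genomics 5′ chemistry was done on 1 control and 1 JPI-289 kidney. The authors aligned reads to mm10 with Cell Ranger 5.0.1, per the labels and methods, and deposited raw UMI counts of 32285 genes in 737280 barcodes per library, with no cell calling or mitochondrial filter. UMIs were summed over barcodes and scaled to non-mitochondrial UMIs. Ratios had 0.5 UMIs added and used genes with at least 20 UMIs over both sets. Intervals were exact binomial or Poisson. No test was made with 1 library per condition. The gene ratios and their intervals were tested on simulated counts drawn independently for each gene. The simulation did not cover UMIs gathered in a few barcodes, the sums over lists or the rule for carrying a list. The genes named by rule were the mitochondrial genes, the 2 most abundant genes of each list, the 5 most abundant nuclear genes per library, the 5 highest and 5 lowest ratios over the other barcodes and between the libraries among genes with at least 100 UMIs, and fixed segment markers. Any other gene was chosen after its values were seen (Wfdc15b, Fos, Lars2 and those of the closing observations). Some genes of the lists enter the sums but are not reported here by name. The barcodes, lists and rules were chosen with earlier results of these data known. Positions are from the GENCODE annotation of GRCm38, the assembly of mm10. Alternatives changed the mitochondrial threshold, UMI minimums, comparison barcodes, weights, scaling, gene minimum, added count and free RNA. Python 3.11.15, numpy 2.4.6, scipy 1.17.1, pandas 2.3.3 and matplotlib 3.10.9 were used.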

Additional observations from a re-analysis of the deposited data

Results flagged for a closer look

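For 3 of the named genes, the JPI-289 over control ratio was at least 2-fold in opposite directions in the mitochondria-rich and in the other barcodes, with counting intervals that did not include 0. The difference itself was not tested, and these genes were named for their ratio over the other barcodes in one library, which fixes part of it. Slc7a13 had a log2 ratio of -1.82 in mitochondria-rich barcodes and 1.47 in the other barcodes. Inmt had -1.13 and 1.86. Tfpi2 had 1.47 in mitochondria-rich barcodes, where all 17 of its JPI-289 UMIs came from a single barcode, and -1.40 in the other barcodes.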

How the results depend on the processing

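Each condition had 1 library, so no result has a replicate check, and depth limits most single genes to a few UMIs. No paired analysis was possible because each condition had 1 library and no test was made. Over the alternatives, 1232 of 1991 recomputed values stayed within a set limit and 730 moved past it. Another 29 went from at least 2-fold in one direction to the other side of 0. The limit was the counting interval for ratios and shares of barcodes. For numbers of genes and for medians over all genes it was a fixed margin, not counting error. In all, 165 values had the opposite sign to the value reported. The cause of these changes was not tested.

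The share of mitochondria-rich barcodes in the control and JPI-289 libraries was 22.3% and 13.9% at a threshold of 40%, 16.5% and 9.99% at 60%, 10.2% and 6.81% at 75%, 21.0% and 15.3% with at least 500 UMIs, 13.7% and 8.91% with 2000, and 14.7% and 7.22% with 300 nuclear UMIs.

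The PT log2 ratio over the other barcodes was 0.89 and 0.46 at 40%, and 0.66 and 0.65 at 75%. In the control it was 0.69 with 500 UMIs, 0.84 with 2000, 0.91 over barcodes of at most 20% and 0.99 centred on all genes. It was 0.47 and 0.85 with equal weight per barcode, 0.85 and 0.40 without Pck1, its most abundant gene, and -1.09 and -1.36 scaled to all UMIs. Between libraries it was -1.94 at 40%, -1.69 at 60%, with 500 UMIs and with equal weights, -1.54 at 75% and -1.51 without Pck1. PT was carried by 0.42% and 5.08% with free RNA from 100 to 300 UMIs, by 4.26% of JPI-289 barcodes thinned to 400, and by 16.8% and 29.1% with 2 UMIs and 2 times the free RNA.

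Genes at least 2-fold higher than in the other barcodes numbered 1802 and 3157 at 75%, 399 and 609 with at least 100 UMIs, 5384 and 6958 with 1, 545 and 777 with 1 CPM added, and 1371 in the control with 2000 UMIs per barcode and 1402 centred. With 1 CPM added, 3348 JPI-289 genes were lower. Between libraries 185 were higher and 320 lower at 75%, 72 and 178 with 100 UMIs, and 2663 and 2402 with 1.

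Scaling to all UMIs moved the median log2 ratio of all genes from -0.21 to -2.08 in the control and from -0.03 to -1.93 in the JPI-289 library, so that 22 and 21 genes were higher and 12310 and 11077 lower. On that scale the control ratios were -0.0844 for Lrp2, -0.67 for Slc12a3, -0.63 for Kap and Gpx3 together, -0.19 for S3 and -0.66 for the distal convoluted tubule, and the JPI-289 ratios were -0.25 for Slc7a13, -0.20 for Slc12a1, -0.88 for S1 and S2 and -0.57 for podocytes.

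The control Slc12a3 and distal convoluted tubule ratios were -0.71 and -0.62 at 60%, and -0.35 and -0.29 with equal weights. Between libraries they were 0.49 and 0.43 at 60%, red blood cell genes were -0.37 at 40%, and intercalated cell genes were 0.00528 at 75%.

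Chosen after seeing the data, leaving rRNA-overlap genes out of the scaling gave PT 0.96 and 0.76, leaving the injury genes out of PT gave 0.64 for JPI-289 and -1.98 between libraries, and subtracting free RNA gave 0.85 and 1402 higher genes in the control. Over other barcodes of 20 to 50%, 232 and 297 genes were higher and 292 and 357 lower, and PT was -0.12 and 0.14. There the control ratios were 0.77 for stroma, 0.23 for macrophages, 1.92 for the thin limb and 0.26 for immediate early genes. The JPI-289 ratios were 0.78, 2.04, 1.25 and 0.0662 for these, -0.24 for Slc12a1, -0.24 for S1 and S2, 1.12 for endothelium and 0.51 for red blood cells.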

Other observations

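The genes named here were chosen after their values were seen. Among genes with at least 30 UMIs in the control mitochondria-rich barcodes, Serpina1d, a serine protease inhibitor of a family of near-identical copies whose counts are therefore uncertain, had the highest ratio over the droplets. It had 30 UMIs in 21 barcodes, 66.9 CPM against 1.16 in droplets and 1.32 in the other barcodes, a log2 ratio over the droplets of 5.81 (4.86 to 6.91). Napsa, an aspartic protease of PT, had 330 UMIs in 136 control barcodes, 736 CPM against 155 in droplets and 134 in the other barcodes. Gm26917, a non-coding RNA, stood at 5323 CPM in control mitochondria-rich barcodes against 893 in droplets and 2857 in the other barcodes. In the JPI-289 library it stood at 7215 against 754 and 2471, with 476 of its 2152 UMIs in a single barcode. Whether its counts hold captured ribosomal RNA, as those of Gm42418 are usually read, was not tested.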
